A study of Mus musculus with 4 samples.

Results

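Ribosome loading in untreated Dup2 muscle was described as the number of ribosome footprint reads per mRNA read of each gene, after scaling the 2 libraries to each other. The members were all 1000 genes of the deposited count table, and none was chosen here by its ratio. Of these, 998 had at least 50 reads summed over the untreated footprint and untreated mRNA libraries and were compared, and the other two (Rbm4 and Mtrnr2l) were left out of every count and median. The table is ordered by reads in the untreated mRNA library, the denominator of the ratio, and ends at 14 reads. A gene with few mRNA reads and many footprints could thus not enter it. Genes near this edge may also have an mRNA count that is high by chance, which would lower their ratio.

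A ribosome at work on an mRNA shields a short stretch of it from nuclease digestion, and these protected fragments, the footprints, can be sequenced. Their number for a gene reflects both how much mRNA there is and how densely ribosomes sit on it, so dividing footprints by mRNA reads gives a measure of loading, often called translation efficiency. In muscle most translation serves the contractile and metabolic proteins of the fibre, while some mRNAs, such as those of ribosomal proteins, are known for being held back from or recruited to ribosomes together.

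The samples were frozen TA (tibialis anterior, a leg muscle) of Dmd Dup2 mice, a model of Duchenne muscular dystrophy named for a duplication in the dystrophin gene, and every group carried this genotype. The untreated control gave 1 mRNA library and 1 footprint library, and muscle treated with scAAV9.U7-ACCA, an adeno-associated virus vector for exon skipping, gave 1 of each as well. The labels state neither the age or sex of the mice, nor the dose, nor how many animals each library holds. Muscle was homogenised with cycloheximide, a drug that stalls ribosomes, and footprints were isolated from a portion of the homogenate.

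Summed over the table, untreated mRNA reads came to 125236 and untreated footprint reads to 3349015, with a median of 25 and 626 reads per gene. Scaling used TMM (trimmed mean of M values), which sets a typical gene to a ratio of 1, here 21.7 footprint reads per mRNA read. A gene was called high or low when its ratio was at least 2-fold above or below 1 and its exact 95% binomial interval excluded 1. With 1 library of each kind there was no replicate check and no test, and all intervals cover counting error only, since reads without molecular identifiers are not independent molecules. Log2 ratios were computed with 0.5 added to each count. A ratio also depends on the share of a transcript that is coding, since mRNA reads come from the whole transcript and footprints mostly from the coding region. Coding lengths were not used here, and their part in the differences between genes was not tested.

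Of the 998 genes, 109 were high (10.9%), 134 were low (13.4%) and 755 lay within the limits of a call. With TMM the interval excluded 1 in 512 genes, more than were called. This number depends on the scaling, and reads that are not independent molecules can make the intervals too narrow. The log2 ratio had an SD of 1.01 and an interquartile range of 1.13 over genes, against a median half-width of 0.62 for the counting interval of a single gene. The genes at the 5% and 95% quantiles, at log2 ratios of -1.74 and 1.63, lay 10.3-fold apart, and the extremes were -3.77 and 3.94. Across the 1000 genes, mRNA and footprint reads had a Spearman correlation of 0.69 and a Pearson correlation of 0.83 on the log2 scale, a description in which all points share 2 libraries and their depth. The 20 genes with most mRNA reads and the 20 with most footprint reads shared 17 genes, and these sets held 55.8% of mRNA reads and 56.5% of footprint reads.

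**Figure D1:**
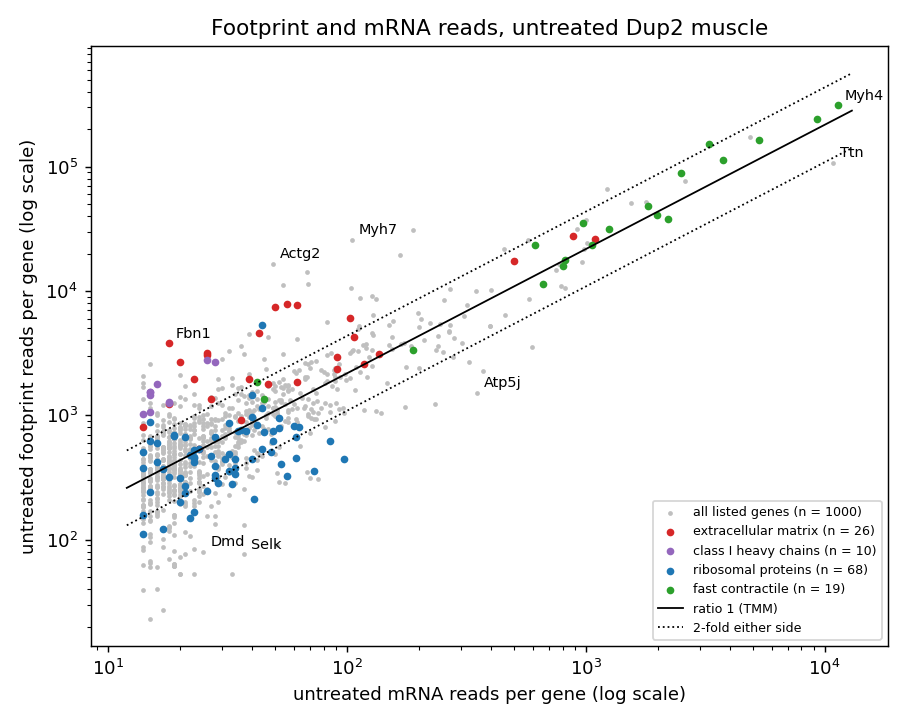
Untreated footprint reads (vertical, log scale) against untreated mRNA reads (horizontal, log scale) for the 1000 listed genes, with 4 gene groups in colour, a solid line at a TMM-scaled ratio of 1 and dotted lines 2-fold either side. Extracellular matrix and class I heavy chain genes lie on or above the solid line, ribosomal protein genes mostly below it, and most fast contractile genes between the dotted lines.

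The spread of ratios was not confined to the genes with fewest reads. Among the 315 genes with 14 to 19 mRNA reads the median log2 ratio was 0.05, with 43 high and 47 low. The 487 genes with 20 to 59 reads had a median of -0.06, with 46 high and 64 low, and the 128 genes with 60 or more reads but fewer than 200 had a median of 0.04, with 16 of each. Among the 68 genes with 200 or more reads, where the median half-width was 0.12, the median was 0.02 and the SD 0.77, with 4 genes high and 7 low.

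The zero of this scale depends on the scaling, so values of gene groups are given relative to the median of all genes. DESeq2 size factors gave 106 high and 134 low genes, close to TMM. The upper quartile gave 78 and 182, the listed totals 74 and 214, the totals without the 20 most abundant genes 76 and 206, and the authors' constants 73 and 214. These last 4 are called the total-like scalings below, and they move every gene down together. The share of high among called genes was 44.9% with TMM and 25.4% with the authors' constants, while the median of all genes moved from 0.00 to -0.30 on the log2 scale.

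All skeletal muscle markers checked except Tnnt3 were among the listed genes. Of these markers, Ckm, Acta1, Myh4, Pvalb, Mb and Ttn, only Ttn was called in either direction. Apart from Atp2a1, the fast contractile genes with most reads had ratios within 2-fold of 1. Myh4, which encodes the myosin motor of type IIb fibres, had 11352 mRNA reads and 311391 footprint reads, a ratio of 1.26 (95% interval 1.24 to 1.29). Ckm, the muscle creatine kinase, had 1827 and 48571 reads and a ratio of 1.22 (1.17 to 1.28), and Pvalb, the calcium buffer parvalbumin, had 822 and 17865 reads and a ratio of 1.00 (0.932 to 1.07). In the fast contractile list 2 of 19 genes were high and none low, against 10.9% and 13.4% over all genes, and the median lay 0.29 above that of all genes. With each of the 4 total-like scalings none was high. The high genes were Atp2a1, the calcium pump of the sarcoplasmic reticulum, with 3279 mRNA and 152732 footprint reads (ratio 2.14, 2.07 to 2.22), and the kinase gene Mylk4, with 42 and 1845 reads (2.02, 1.49 to 2.81). Mylpf, a regulatory light chain of fast fibres, stood at the lower side with 2213 and 38287 reads and a ratio of 0.796 (0.763 to 0.831).

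The highest ratios in the table included actin and myosin heavy chain genes other than those of adult fast fibres. Actg2, a smooth muscle actin, had only 49 mRNA reads but 16554 footprint reads, a ratio of 15.5 (11.8 to 21.0). Actg1 and Actb, the actins of the cytoskeleton, had 68 and 14135 reads and 167 and 19664 reads, with ratios of 9.56 (7.54 to 12.3) and 5.42 (4.65 to 6.35). Acta2, another smooth muscle actin and the 1 listed gene of the endothelial and smooth muscle list, had 69 and 11358 reads (7.57, 5.98 to 9.74). By contrast Acta1, the actin of the adult sarcomere, had 3741 and 112492 reads and a ratio of 1.38 (1.34 to 1.43). Among the myosins, Myh7 of slow fibres had 105 and 25854 reads (11.3, 9.35 to 13.9), Myh7b had 54 and 11088 (9.45, 7.23 to 12.6), and the cardiac Myh6 had 190 and 30980 (7.50, 6.50 to 8.70). Embryonic Myh3 was high at a lower ratio, with 1226 and 66294 reads (2.49, 2.35 to 2.63).

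Members of these families are near-identical in sequence, so single values are uncertain, since the handling of reads that match several genes is not stated. Summed ratios were 1.91 for the 6 actin genes and 1.45 for the 9 sarcomeric myosin heavy chain genes, against 1.23 for all listed genes. These family sets were added after the values were seen. Each set had 4 high genes, against 10.9% over all genes. The slow and cardiac contractile list had 3 high genes of 9, against 10.9% over all genes, all of them myosin heavy chains, and a median 0.76 above all genes. Without families that have near-identical copies its median was 0.11 above, over 5 genes. Tnnt1, a troponin of slow fibres, had 37 and 620 reads and a ratio of 0.771 (0.553 to 1.11). The immature and regenerating fibre list had 2 high genes of 7, against 10.9% over all genes, Myh3 and Myl4, and a median 0.70 above all genes, which became -0.29 over the 4 genes left without those families. Myl4, an embryonic and atrial light chain, had 32 mRNA and 3277 footprint reads (4.71, 3.33 to 6.90).

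Genes of the extracellular matrix list carried more footprints per mRNA than the median gene. In this list 14 of 26 genes were high and none low, against 10.9% high and 13.4% low over all genes, the median lay 1.20 above that of all genes, and 26 of 26 members were above it. Fbn1, which encodes the microfibril protein fibrillin, had 18 mRNA and 3804 footprint reads, a ratio of 9.72 (6.14 to 16.4). Sparc, a collagen-binding matrix glycoprotein, had 50 and 7430 reads (6.84, 5.18 to 9.22), and Fn1, fibronectin, had 56 and 7859 (6.46, 4.97 to 8.56). The small proteoglycan Dcn, decorin, had 62 and 7707 reads (5.72, 4.46 to 7.47). Of basement membrane genes, the laminin gene Lamc1 was high with 20 and 2677 reads (6.16, 3.98 to 10.1). Nid1, nidogen, was high with 26 and 3085 (5.46, 3.72 to 8.37). The collagen genes Col4a1 and Col4a2, also of the basement membrane and in this list, were not called. Thbs4, a thrombospondin and the 1 listed gene of the tendon list, had 26 and 3172 reads (5.61, 3.82 to 8.61). Mmp2, a protease that cuts matrix, is in no list and had 15 and 2567 reads (7.87, 4.76 to 14.1).

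Fibrillar collagens had ratios nearer to 1 than most of that list. None of the 6 fibrillar collagen chains, a set added after the values were seen, was called, and their median lay 0.18 above that of all genes. Col1a1, a chain of the main collagen of connective tissue, had 888 and 27462 reads and a ratio of 1.42 (1.33 to 1.52), and its partner Col1a2 had 500 and 17424 (1.60, 1.47 to 1.76). Col3a1 had 1089 and 26007 reads (1.10, 1.03 to 1.17). These 3 chains were also the members with most mRNA reads. With at least 50 mRNA reads required, the matrix list kept 13 genes, 4 of them high. Its median was 0.54 above that of the 245 genes left, of which 24 were high and 31 low. Since this minimum acts on the denominator of the ratio, it can itself lower a list median. Matrix genes together held 2.97% of mRNA reads and 4.33% of footprint reads, and the part of connective tissue cells in these ratios was not tested. In a piece of whole muscle, fewer cells of a type and less RNA per cell cannot be told apart.

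In the combined heat shock and ER (endoplasmic reticulum) chaperone list 4 of 16 genes were high and none low, against 10.9% and 13.4% over all genes, with a median 0.46 above all genes. All 4 work in the ER, where secreted proteins fold. P4hb, a disulfide isomerase and collagen hydroxylase subunit, had 20 and 1394 reads (3.21, 2.07 to 5.27), and Hspa5, the ER Hsp70, had 23 and 1479 (2.96, 1.96 to 4.68). Calr, calreticulin, had 33 and 2003 reads (2.79, 1.98 to 4.07), and Pdia3 had 14 and 860 (2.83, 1.68 to 5.19). Split after the values were seen, the 6 ER genes had a median of 1.45 above all genes, and the 10 cytosolic and mitochondrial chaperones had a median of 0.03 above, with none called. This split followed from the values and was not tested, and in the treated pair the medians were 0.16 and 0.05. Serpinh1, the collagen chaperone, belongs to the matrix list and had 14 and 813 reads (2.67, 1.58 to 4.91).

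**Figure D2:**
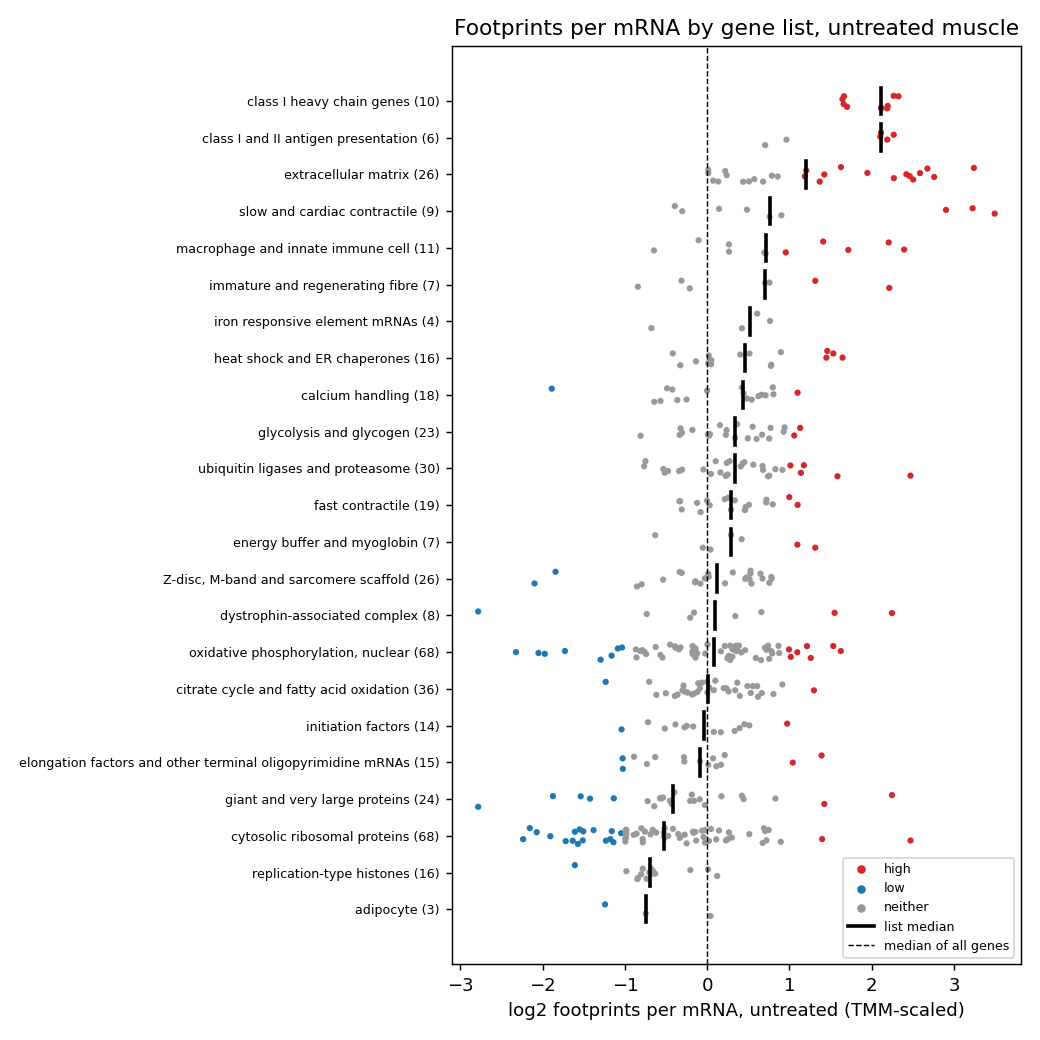
Log2 footprints per mRNA in untreated muscle (horizontal) for each gene of the lists with at least 3 compared members, with the number of genes in parentheses. Class I heavy chains were added after the values were seen. Red points are high, blue low and grey neither, bars mark list medians and the dashed line marks the median of all genes. All extracellular matrix points lie right of the dashed line, and most ribosomal protein points lie left of it.

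Antigen presentation had the highest median among lists with at least 3 members, sets added afterwards aside. In the class I and II list 4 of 6 genes were high and none low, against 10.9% and 13.4% over all genes, with a median 2.11 above that of all genes. B2m, the light chain shared by class I molecules, had 36 mRNA and 3619 footprint reads (4.62, 3.33 to 6.61). H2-K1, a class I heavy chain, had 26 and 2773 reads (4.91, 3.34 to 7.53), and H2-D1 had 28 and 2681 (4.41, 3.04 to 6.64). The class II chain H2-Aa had 14 and 1355 reads (4.45, 2.64 to 8.17), while its partners H2-Ab1 and H2-Eb1 were not called, at ratios of 1.98 (1.37 to 2.97) and 1.65 (1.17 to 2.43). All 10 genes of a class I heavy chain set added afterwards were high, with ratios from 3.21 to 5.17. Some had near-identical counts (H2-Q7 and H2-Q9 had 18 mRNA reads each, and H2-Q6 and H2-Q8 had 15 each), so the set cannot be read as 10 separate measurements.

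In the macrophage and innate immune cell list 5 of 11 genes were high and none low, against 10.9% and 13.4% over all genes, with a median 0.71 above all genes. With the total-like scalings or DESeq2 size factors 4 were high. The high members were the lysosomal genes Ctsb, Psap and Lgmn, the lipid carrier Apoe and the actin-bundling gene Lcp1. Ctsb, the protease cathepsin B, had 39 and 4514 reads (5.32, 3.89 to 7.50), Apoe had 104 and 10485 (4.64, 3.82 to 5.68) and Psap, prosaposin, had 128 and 9173 (3.30, 2.77 to 3.96). Other members were not called. Lyz2, a lysozyme, had 61 and 2189 reads (1.65, 1.28 to 2.17), and the complement genes C1qb and C1qa had ratios of 0.948 (0.635 to 1.48) and 0.649 (0.448 to 0.974). The list held 0.512% of mRNA reads and 1.06% of footprint reads, and its part in the ratios of genes that fibres also express was not tested. No red blood cell or Schwann cell gene of the lists was among the listed genes. Of 3 adipocyte genes, Fabp4, a fatty acid carrier, was low, with 15 and 142 reads and a ratio 2.30-fold below 1 (1.25 to 3.92).

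Cytosolic ribosomal protein mRNAs carried fewer footprints than the median gene. Of 68 genes 17 were low and 2 were high, against 13.4% low and 10.9% high over all genes, 51 lay below the median of all genes, and the list median was -0.53 relative to it. Large subunit genes had a median of -0.57 with 11 of 42 low, and small subunit genes one of -0.45 with 6 of 26 low. Many of these mRNAs begin with a run of pyrimidines, the terminal oligopyrimidine (TOP) tract, through which growth signals are known to control their translation as a group. The starts of 5 genes with such a run are shown because genes with long runs lay on both sides of the median of all genes. The sequences are from RefSeq (GRCm38.p6), 5′ to 3′ on the strand of the gene, 10 bases before and 20 from the annotated start, with the run in capitals.
Rps6: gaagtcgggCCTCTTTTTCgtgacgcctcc
Fau: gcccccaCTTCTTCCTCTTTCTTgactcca
Rpl13a: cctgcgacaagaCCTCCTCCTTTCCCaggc
Rpl15: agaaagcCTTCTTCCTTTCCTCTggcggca
Rpl28: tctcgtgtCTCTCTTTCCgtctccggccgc
These windows lie at chr4:86857348-86857377 (minus strand), chr19:6057937-6057966 (plus), chr7:45128726-45128755 (minus), chr14:18270967-18270996 (minus) and chr7:4792955-4792984 (plus).

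Rps6, a small subunit protein whose phosphorylation is a common readout of growth signalling, had 85 mRNA and 625 footprint reads, a log2 ratio of -1.57, and was low. Fau, which encodes small subunit protein eS30 as a fusion, had 26 and 245 reads and was low at -1.23. The large subunit gene Rpl13a had 28 and 312 reads, at -0.99, just short of the 2-fold mark. Rpl15, with 16 marked bases like Fau but a further C just before them, had 28 and 668 reads and a log2 ratio of 0.11. Rpl28 had 15 and 626 reads at 0.89. Neither was called. The run (at least 5 bases of C or T, the first a C, beginning within 3 bases of the annotated start, on the gene's own strand only) was found in 18 of 51 ribosomal protein genes with a promoter in the table, 35.3% (95% exact interval 22.4 to 49.9). Also counted per gene, it was found in 16.0% of 748 listed genes outside the ribosomal protein and other TOP lists, and in 13.5% of all reference genes. Counted per promoter, it was found in 11.5% of all reference promoters of the same length. Ribosomal protein genes with the run had a median log2 ratio of -0.58 and those without it one of -0.53, so this window did not separate them. With the run beginning at the exact annotated start, the 10 genes with it had a median of -0.17 and the 41 without it one of -0.69. Within 10 bases the medians were -0.50 and -0.62, and these differences were not tested. Annotated starts can lie some bases from the start used in muscle, and with the run allowed within 10 bases the share was 54.9%.

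**Figure D3:**
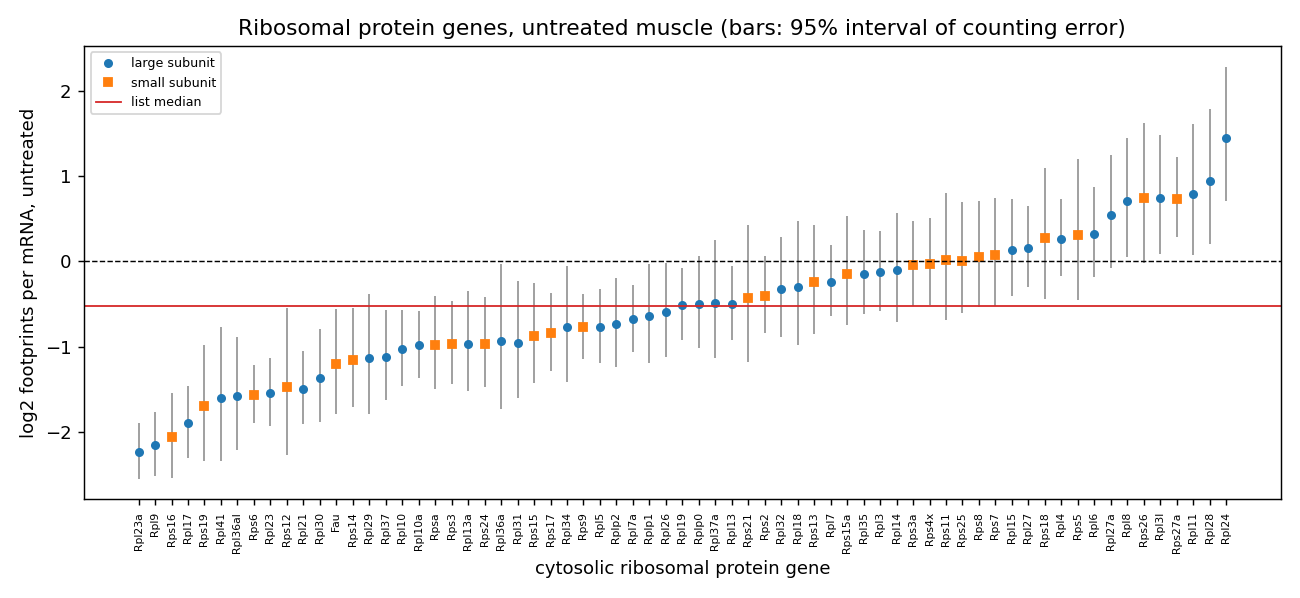
Log2 footprints per mRNA in untreated muscle (vertical) for the cytosolic ribosomal protein genes in rising order (1 high member is not shown), circles for the large and squares for the small subunit, with bars for the 95% interval of counting error. The red line is the median of all 68 members and the dashed line a ratio of 1. Ratios are plotted with nothing added to the counts. The points shown run from Rpl23a (4.70-fold below 1) to Rpl24 (ratio 2.72), and most lie below the dashed line.

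The 3 lowest ribosomal protein genes were Rpl23a, Rpl9 and Rps16. Rpl23a had 97 mRNA and 449 footprint reads, 4.70-fold below 1 (95% interval 3.73 to 5.86). Rpl9 had 73 and 358 reads, 4.43-fold below 1 (3.40 to 5.71), and Rps16 had 41 and 214, 4.16-fold below 1 (2.91 to 5.84). Of the high members, Rpl24 had 15 mRNA reads, at the edge of the table, and 887 footprint reads (2.72, 1.64 to 4.88). Of the 11 ribosomal protein genes with at least 50 mRNA reads, 6 were low and none high. Their median was -1.54 relative to the 245 genes with as many reads, of which 31 were low and 24 high. This minimum acts on the mRNA reads, the denominator of the ratio, so it can itself lower a list median. With the upper quartile, the listed totals or the authors' constants as scaling, 27, 30 and 30 of the 68 genes were low.

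In the list of elongation factors and other TOP mRNAs 2 of 15 genes were high and 2 low, shares near the 10.9% and 13.4% over all genes, with a median of -0.09 relative to all genes. With the total-like scalings 1 gene was high and 3 or 4 were low. Eef1g and Eef1b2, subunits of the exchange factor of elongation, were low with 97 and 1041 reads (2.03-fold below 1, 1.63 to 2.50) and 38 and 410 reads (2.01-fold below 1, 1.41 to 2.81). Vim, the intermediate filament vimentin, was high with 54 and 3106 reads (2.65, 2.02 to 3.53), as was Naca, of which muscle has a long isoform, with 111 and 4986 reads (2.07, 1.71 to 2.52). Eef2, the translocation factor, had 150 and 3674 reads and a ratio of 1.13 (0.957 to 1.34). Among 14 initiation factors the helicase gene Eif4a1 was high, with 20 and 874 reads (2.01, 1.29 to 3.31). Eif4g2, a scaffold factor that lacks the cap-binding partner site, was low, with 44 and 470 reads (2.03-fold below 1, 1.46 to 2.78). Eif4a1 was not high under the total-like scalings or DESeq2 size factors. The median of the initiation factors was -0.04 relative to all genes.

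Mitochondrial ribosomal proteins, 5 genes gathered after the values were seen, had 4 low members, against 13.4% low over all genes, and a median of -1.47 relative to all genes. Their mRNA counts of 17 to 20 reads are small, and footprint counts ran from 81 for Mrps16, 5.10-fold below 1 (2.92 to 8.48), to 231 for Mrps23, which was not called. Replication-type histones, whose mRNAs end without a poly(A) tail, had a median of -0.70 relative to all genes, with 1 of 16 genes low, against 13.4% over all genes, and 4 to 7 low with the total-like scalings. The gene low with TMM was Hist1h2ba, with 15 and 110 reads (2.96-fold below 1, 1.60 to 5.10). A set of 10 H2B genes held 18 to 22 mRNA reads and 247 to 273 footprint reads each and Hist1h2bc and Hist1h2br were also alike within 10% in every library, so the 16 genes hold fewer separate measurements than their number.

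Nuclear genes of oxidative phosphorylation spread evenly around the median of all genes. Of 68 genes 7 were high and 8 low, shares of 10.3% and 11.8% against 10.9% and 13.4% over all genes, and the list median was 0.08 above that of all genes. Atp5j, coupling factor 6 of ATP synthase, was the lowest, with 351 mRNA reads and only 1525 footprint reads, 5.00-fold below 1 (4.44 to 5.62). Other subunits of the same enzyme were high, Atp5d with 29 and 1977 reads (3.14, 2.18 to 4.70) and Atp5g3, a subunit of its membrane ring, with 45 and 2861 (2.92, 2.18 to 4.02). Cycs, cytochrome c, had 234 and 1230 reads, 4.14-fold below 1 (3.58 to 4.76), and Cox7b, a small subunit of cytochrome oxidase, had 176 and 1157, 3.31-fold below 1 (2.81 to 3.88). By complex, a split made afterwards, the medians relative to all genes were 0.28 for complex I, 0.48 for complex II, 0.21 for complex III, -0.14 for cytochrome oxidase and -0.02 for ATP synthase. Within 1 enzyme the ratios of ATP synthase subunits thus ran from log2 -2.32 to 1.62. With the upper quartile, the listed totals or the authors' constants, 12, 14 and 14 genes were low and 3, 3 and 2 high.

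In the citrate cycle and fatty acid oxidation list 1 of 36 genes was high, against 10.9% over all genes, the lipase gene Lpl with 18 and 988 reads (2.53, 1.59 to 4.28). One gene was low, Dlst, a subunit of the oxoglutarate dehydrogenase complex, with 118 and 1095 reads (2.34-fold below 1, 1.92 to 2.83), against 13.4% low over all genes, and the median was 0.01 above all genes. In glycolysis and glycogen metabolism 18 of 23 genes lay above the median of all genes, the list median was 0.34 above it, and 2 genes were high, against 10.9% over all genes. With each of the 4 total-like scalings none was high and 1 was low. Pkm2, pyruvate kinase, had 457 and 21768 reads (2.19, 2.0 to 2.41), and Pfkm, the muscle phosphofructokinase, had 572 and 25915 (2.08, 1.92 to 2.27). The energy buffer list had 2 high genes of 7, against 10.9% over all genes, none low and a median 0.29 above all genes, and 1 high gene with the total-like scalings. Adssl1, of the purine nucleotide cycle, had 39 and 2134 reads (2.52, 1.84 to 3.55), and Ak1, adenylate kinase, had 113 and 5275 (2.15, 1.78 to 2.61).

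Dystrophin mRNA was among the least loaded in the table. Dmd, which encodes the protein that ties the actin cytoskeleton to the fibre membrane, had 25 mRNA reads and 80 footprint reads, 6.79-fold below 1 (4.15 to 10.8). Utrn, its relative utrophin, had 18 and 348 reads and a ratio of 0.889 (0.554 to 1.52), and was not called. Gene counts cannot show which exons the footprints of Dmd covered. In the dystrophin-associated complex list 2 of 8 genes were high and Dmd was the only low one, against 10.9% and 13.4% over all genes, with a median 0.09 above all genes. Lama2, the laminin chain that dystroglycan binds outside the cell, had 20 and 2114 reads (4.86, 3.14 to 7.98), and Dag1, dystroglycan itself, had 16 and 1049 (3.02, 1.85 to 5.30). The sarcoglycan gene Sgca had 20 and 564 reads and a ratio of 1.30 (0.832 to 2.14).

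Genes of giant and very large proteins, Dmd among them, lay mostly below the median of all genes. Of 24 genes 5 were low and 2 high, against 13.4% and 10.9% over all genes, 18 were below the median of all genes, and the list median was -0.42 relative to it. Ttn, the sarcomere spring titin, had 10853 mRNA and 107397 footprint reads, 2.20-fold below 1 (2.15 to 2.24). Xirp2 and Myo18b, of the sarcomere and its attachments, were 2.89-fold (2.41 to 3.46) and 2.67-fold (2.22 to 3.20) below 1. Neb, nebulin, which spans the thin filament, was not called, with 1788 and 52116 reads (1.34, 1.28 to 1.41). The 2 high genes, Lama2 and Hspg2, encode secreted proteins of the basement membrane, and Hspg2, perlecan, had 103 and 6037 reads (2.70, 2.22 to 3.31).

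Sarcomere scaffold and calcium handling genes were mostly uncalled. In the Z-disc and M-band list 2 of 26 genes were low and none high, against 13.4% and 10.9% over all genes, with a median 0.12 above all genes, and 4 were low with the total-like scalings. The low genes were Ankrd23, a stress-responsive titin-binding protein, with 68 and 347 reads (4.26-fold below 1, 3.23 to 5.54), and the LIM protein gene Fhl1, with 372 and 2256 reads (3.58-fold below 1, 3.20 to 4.00). In the calcium handling list 1 of 18 genes was high, Atp2a1, and 1 was low, Jph2, shares of 5.6% each against 10.9% and 13.4% over all genes. Jph2, a junctophilin that holds the calcium-release membranes together, had 26 and 155 reads (3.65-fold below 1, 2.31 to 5.55). The median of that list lay 0.43 above all genes, and Atp2a1 was not high with the total-like scalings.

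Lists of mRNAs with known translational control had 2 to 4 members each. Both listed selenoproteins, whose mRNAs recode a stop codon, were low. Selk had 37 and 76 reads (10.6-fold below 1, 6.94 to 15.9), and Gpx4, a lipid peroxide reductase, had 51 and 342 (3.24-fold below 1, 2.37 to 4.36). Amd2, of the polyamine pathway, which has a regulatory upstream reading frame, had 30 and 281 reads (2.32-fold below 1, 1.54 to 3.39). Pabpc1, the poly(A)-binding protein, which limits its own translation, was not called, with 16 and 231 reads (0.664, 0.400 to 1.18). None of 4 mRNAs with iron responsive elements was called, and the ferritin heavy chain gene Fth1 had 76 and 1039 reads (0.629, 0.498 to 0.805). In the ubiquitin and proteasome list 5 of 30 genes were high and none low, against 10.9% and 13.4% over all genes, with a median 0.34 above all genes, and 2 were high with the total-like scalings. Ubb, a ubiquitin gene, had 129 and 6357 reads (2.27, 1.90 to 2.72). The proteasome genes Psmc5 and Psmd6 were high at 2.28 (1.35 to 4.19) and 2.07 (1.32 to 3.45). With the upper quartile as scaling, Ubb and Psmc5 were no longer called. Abra, an activity-responsive actin-binding gene, and Nr4a1, the 2 listed immediate early and activity genes, were not called.

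The 12 lowest genes, ranked by the interval bound nearest to 1, came from no single list. Phf14 and Zc3h11a, of chromatin and of mRNA export, had 51 and 90 reads (12.3-fold below 1, 8.56 to 17.6) and 23 and 53 reads (9.43-fold below 1, 5.52 to 15.7). Zfp277, a zinc finger gene, had 33 and 53 reads, 13.5-fold below 1 (8.49 to 21.3). The near-identical zinc finger genes Gm14391 and Gm6710 had 20 and 53 reads each, and cannot be told apart. Ptp4a2, a phosphatase gene, had 16 and 40 reads (8.69-fold below 1, 4.55 to 15.9), and Ppp3r1, the regulatory subunit of calcineurin, had 76 and 305 (5.42-fold below 1, 4.16 to 6.98). The uncharacterised 2610507B11Rik had 37 and 130 reads (6.19-fold below 1, 4.17 to 8.97) and Wbp5 had 14 and 39 (7.80-fold below 1, 3.91 to 14.7). Atp5j, Dmd and Selk complete the 12. The 12 highest genes had 15 to 190 mRNA reads and 2567 to 30980 footprint reads, and the 12 lowest 14 to 351 and 39 to 1525.

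**Figure D4:**
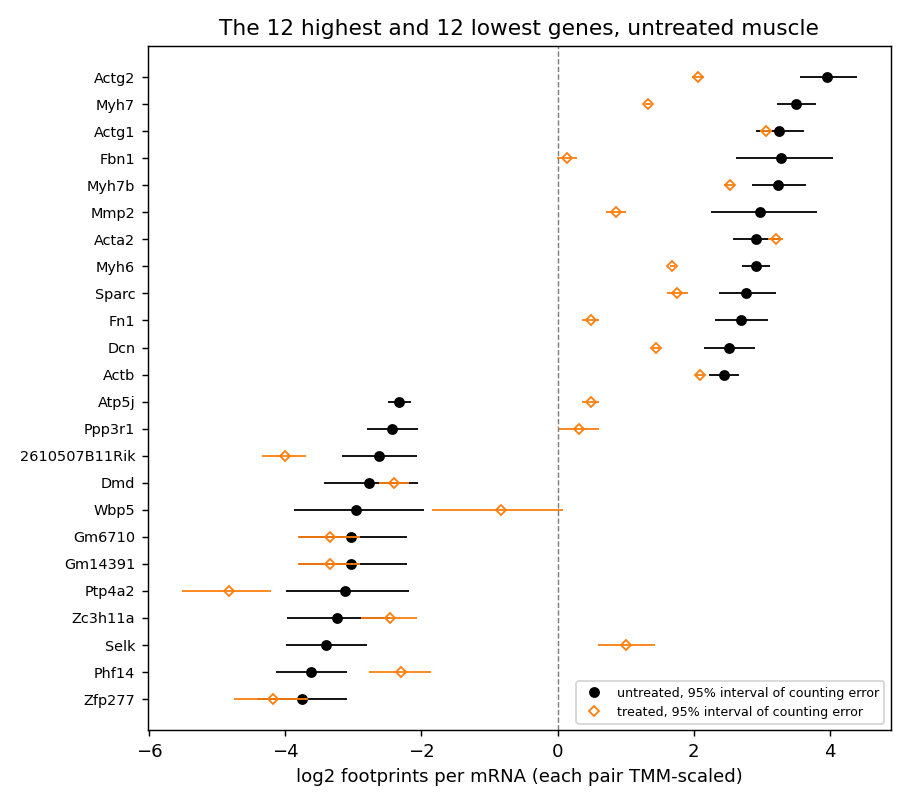
Log2 footprints per mRNA (horizontal) of the 12 highest and 12 lowest genes in untreated muscle, ranked by the interval bound nearest to 1. Black circles are the untreated pair and orange diamonds the treated pair, each scaled by TMM with nothing added to the counts, with 95% intervals of counting error. Of the 12 highest 9 were high in the treated pair, and of the 12 lowest 8 were low there and Selk was high. Over all genes 15.7% were high and 22.7% low in the treated pair.

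The same ratio could be taken from the treated pair, which shares no library with the untreated pair but is another condition and no replicate. There 157 of 997 genes were high (15.7%) and 226 low (22.7%). Of the 109 genes high in untreated muscle 49 were high in treated muscle, 45.0% of the untreated set and 31.2% of the treated set, 5 were low and 55 neither. Of the 134 low genes 66 were low in treated muscle, 49.3% of the untreated and 29.2% of the treated set, 7 were high and 61 neither. Across 996 genes the 2 ratios had a Spearman correlation of 0.36 and a Pearson correlation of 0.46. Footprint reads alone had a Spearman correlation of 0.83 between the conditions and mRNA reads alone one of 0.57, over 1000 genes. The treated mRNA library held 4248818 reads over the listed genes, far more than the untreated one, so the precision of the 2 ratios differs, with a median half-width of 0.62 untreated and 0.21 treated.

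Gene groups kept their side of the median to different degrees. Over all genes 10.9% were high and 13.4% low untreated, and 15.7% were high and 22.7% low treated. Class I and II antigen presentation had medians relative to all genes of 2.11 untreated and 1.75 treated, and the 4 genes high in untreated muscle were high in both. For ribosomal proteins the medians were -0.53 and -1.66, with 17 and 55 of 68 genes low and 13 low in both. Very large proteins had medians of -0.42 and -1.27, with 5 and 18 of 24 low, and all 5 untreated low genes were low in both. Dmd was low in both, with log2 ratios of -2.78 untreated and -2.39 treated, the latter from 1959 mRNA and 183 footprint reads. The matrix list stood at 1.20 and 0.31, with 14 and 6 genes high and 5 high in both. Fbn1 went from a log2 ratio of 3.24 to 0.14 and Fn1 from 2.68 to 0.49, while Sparc was high in both at 2.76 and 1.76. Histones lay on opposite sides, at -0.70 untreated and 1.24 treated, where 15 of 16 were high. Near-identical copies among these 16 genes leave fewer separate measurements than their number. Mitochondrial ribosomal proteins stood at -1.47 and 0.10. Nuclear oxidative phosphorylation genes stood at 0.08 and 0.56, and Atp5j had log2 ratios of -2.32 and 0.49. Whether these differences between the conditions exceed the spread between animals was not tested, as each group has 1 library.

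**Figure D5:**
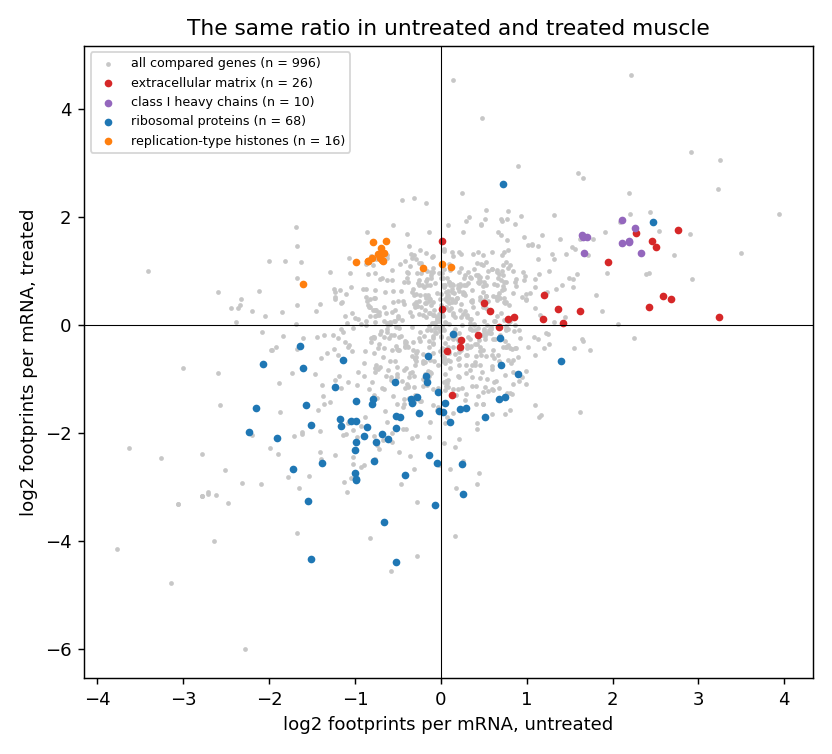
Log2 footprints per mRNA in treated muscle (vertical) against untreated muscle (horizontal) for 996 genes, each pair scaled by TMM, with 4 gene groups in colour. Class I heavy chains are high in both, ribosomal proteins reach lower values in treated muscle, histones lie above 0 and mostly left of 0, and matrix genes spread to the right with treated values mostly near 0.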

How the data were processed

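The authors deposited 1 table of 1000 genes with a read count per library, per the file headers, and a normalized read count, which within each library is proportional to the count (100% of genes, to within 0.1). These deposited values were read as CPM from their scale and used only as an alternative scaling. The submitters' processing notes name Trimmomatic, STAR, edgeR and the genome build mm9, without roles or versions. Which tool counted reads, with which strand setting, and how reads matching several genes were treated is not stated. All columns mapped to 1 of the 4 libraries by name, and symbols are given as deposited. All listed identifiers are of protein-coding mRNAs (NM_), so the planned noncoding, mitochondrially encoded, red blood cell and Schwann cell lists had no member.

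Raw counts of the untreated pair were scaled by TMM with edgeR 4.0.16 (R 4.3.3), using all 1000 genes. Intervals are exact conditional binomial (Clopper-Pearson, SciPy 1.17.1, 95%). The calculation was tested on simulated data. Genes were called at 2-fold with an interval excluding 1 and at least 50 summed reads. A call compares 2 libraries. Alternatives were other scalings (upper quartile, listed total, DESeq2 1.42.0 size factors, total without the top 20 genes, the authors' constants, TMM over 4 libraries), other minimums, thresholds of 1.5 and 4, 5 added to each count, and leaving out families with near-identical copies. Named genes are the 12 highest and 12 lowest by the interval bound nearest to 1, Dmd and Utrn, and up to 4 members per list, called members first. Further genes named beside them were chosen after their values were seen. The members and the 31 gene lists were chosen with earlier results of these data known. A comparison by coding length was planned and not made, since coding lengths were not used here. Transcript starts came from RefSeq promoters of GRCm38.p6, where 996 of 1000 identifiers matched a gene and 809 had a promoter. These coordinates are of that build, not of mm9. Values of a few list members are not reported here, though counts and medians include them.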

Additional observations from a re-analysis of the deposited data

Results flagged for a closer look

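For 12 genes the ratio was called in opposite directions in the untreated and treated pairs. With 1 library per group these differences were not tested. Low in untreated and high in treated muscle were Selk (log2 ratios -3.41 and 1.01, from 37 mRNA and 76 footprint reads untreated and 99 and 98 treated), 9130011J15Rik (-2.00 and 1.20), Gng11 (-1.82 and 1.19), Crip1 (-1.69 and 1.82), Tagln2 (-1.68 and 1.47) and 1110001J03Rik (-1.62 and 1.17). Slc25a5, the adenine nucleotide carrier of mitochondria, stood at -1.07 and 1.24, from 42 and 439 reads untreated and 116 and 135 treated. High in untreated and low in treated muscle were Gnas, a stimulatory G protein subunit (1.62 and -1.61, from 83 and 5588 reads untreated and 4801 and 772 treated), the lysosomal membrane gene Lamp1 (1.17 and -1.66), the phosphatase gene Ppp1ca (1.14 and -1.71), the catalytic subunit gene of protein kinase A, Prkaca (1.10 and -1.47), and the methyltransferase gene Smyd2 (1.00 and -1.09).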

How the results depend on the processing

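The untreated mRNA library, with 25 reads for the median gene, limits the precision of most ratios. No paired analysis was possible because each group has 1 library. The comparison by coding length was not run. No called gene changed sign under the alternatives run, but several medians did. With at least 50 mRNA reads those of oxidative phosphorylation, the citrate cycle and the Z-disc list were -0.28, -0.19 and -0.14, and further signs change in the values below. A minimum of mRNA reads acts on the denominator of the ratio, so it can itself lower list medians. The number of low genes, 134 with TMM, was 214 with the listed totals, 206 without the top 20 genes and 214 with the authors' constants. At 1.5-fold 219 genes were high and 219 low, with 109 high and 112 low in both conditions, and at 4-fold 34 and 37, with 8 and 20. With at least 50 mRNA reads (245 genes) 24 were high and 31 low, 16 and 18 in both conditions, the correlation with the treated ratio was 0.47, and list medians were -1.54 for ribosomal proteins, 1.80 for slow contractile and 0.54 for matrix genes. With at least 200 (68 genes) 4 were high and 7 low, 3 and 3 in both, the correlation of mRNA and footprint reads was 0.90, and medians were -0.77 for oxidative phosphorylation, -0.55 for the Z-disc list and 0.49 for matrix genes. With 5 added to each count the genes with 200 or more reads stood at 0.22 and fast contractile genes at 0.51. Without families with near-identical copies these were -0.11 and 0.18, and slow and immature fibre genes stood at 0.11 and -0.29. Chosen after seeing the data, leaving out only actin, myosin and class I rows gave 31 genes high in both conditions, 0.17 for slow and -0.24 for immature fibre genes, and the share of ribosomal protein genes with a pyrimidine run was 19.6% at the exact start and 54.9% within 10 bases. The other list medians moved less in 298 comparisons, and named genes kept their call in 985, lost it in 73 and gained it in 1.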

Other observations

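Of the 109 high genes 40 were in no gene list, and 11 of these were high in treated muscle as well, where 15.7% of all genes were. The share of all compared genes in no list is not given, so this count is not read as a result about high genes. The examples below were picked after their values were seen, so they show no more than single genes. Several encode secreted or lysosomal proteins. Fstl1, a secreted glycoprotein, had 14 mRNA and 2068 footprint reads (ratio 6.80, 4.04 to 12.5), and Sparcl1, a relative of Sparc, had 14 and 1692 (5.56, 3.30 to 10.2). Lrp1, a large endocytic receptor, had 47 and 4301 reads (4.21, 3.16 to 5.74), Tnxb, a matrix tenascin, had 21 and 1717 (3.76, 2.45 to 6.09) and the protease gene Ctsl had 15 and 1155 (3.54, 2.14 to 6.35). Others act on the cytoskeleton. Gsn, gelsolin, had 114 and 8712 reads (3.52, 2.92 to 4.27), Flii had 14 and 1830 (6.01, 3.57 to 11.0), the nonmuscle actinin Actn1 had 30 and 2823 (4.33, 3.03 to 6.43), and Myh9, a nonmuscle myosin, had 62 and 4103 (3.04, 2.37 to 3.98).

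Of the 134 low genes 88 were in no gene list, and 40 of these were low in treated muscle as well, where 22.7% of all genes were. Here too the share of all compared genes in no list is not given, so the count is not read as a result about low genes. Several encode chromatin proteins. Hmgn2, a nucleosome-binding protein, had 23 and 84 reads (5.95-fold below 1, 3.58 to 9.53), and the bromodomain gene Brd2 had 15 and 60 (5.43-fold below 1, 2.87 to 9.69). The histone methyltransferase genes Mll2 and Mll3 had 32 and 230 reads (3.02-fold below 1, 2.02 to 4.39) and 18 and 128 (3.06-fold below 1, 1.76 to 5.03). Zfp106, a nuclear zinc finger gene, had 70 and 316 reads (4.81-fold below 1, 3.66 to 6.26) and 8471 and 64 in the treated pair, a log2 ratio of -6.01. Among fibre genes, Hfe2, hemojuvelin, had 15 and 67 reads (4.87-fold below 1, 2.58 to 8.61), and Dmpk, the kinase gene of myotonic dystrophy, had 28 and 156 (3.90-fold below 1, 2.51 to 5.86). Col7a1, the anchoring fibril collagen, was the only collagen gene called in either direction, with 21 and 77 reads (5.93-fold below 1, 3.47 to 9.71).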
